A study of Mus musculus with 12 samples.

Results

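The Prader-Willi imprinted cluster on mouse chromosome 7 was followed here through 7 protein-coding genes, Snurf, Snrpn, Ndn, Magel2, Peg12, Mkrn3 and Ube3a. They were taken by symbol from a hippocampal table of 22236 genes, and all 7 passed the filter on low counts, which 15853 genes passed. Snurf was selected on its measured counts in these libraries, for opposite differences after knockdown of Hp1bp3 in the strains, so its knockdown values are a description and carry no test. The other 6 were chosen as its neighbours in the cluster, not for their values, though earlier results of these data were known.

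The cluster is a textbook case of genomic imprinting, in which a gene is used from the copy inherited from 1 parent. Snurf, Snrpn, Ndn, Magel2, Peg12 and Mkrn3 are used from the paternal copy, under an imprinting center at the start of the Snurf-Snrpn transcript whose maternal copy is methylated. Ube3a is biallelic in most cells, but in neurons the paternal copy is silenced by a long antisense transcript that begins at the same imprinting center, and neurons therefore use the maternal copy. In people, loss of the paternal genes causes Prader-Willi syndrome and loss of maternal UBE3A causes Angelman syndrome.

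Male mice of the inbred strains C57BL/6J (B6) and DBA/2J (D2), aged 3 to 5 months, were injected bilaterally in the hippocampus with adeno-associated virus serotype 9. The virus carried an shRNA against Hp1bp3, a chromatin protein that binds heterochromatin protein 1 (group KD), or a scrambled shRNA (group Ctrl). The hippocampus was dissected at least 6 weeks later, and 3 libraries of mRNA were sequenced for each combination of strain and virus (B6 Ctrl, B6 KD, D2 Ctrl and D2 KD). The RNA came from the whole tissue, so uninfected cells were included, and in such bulk RNA fewer cells of a type and less RNA per cell cannot be told apart.

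The target checks the labels. Hp1bp3 stood at 8826 to 9372 normalized counts in B6 Ctrl against 5429 to 7633 after KD. The D2 Ctrl libraries had 6504 to 7002, and in the D2 KD group it read 5337 and 4878 in the first and second libraries, but 6941 in the library labelled D2 KD 3, which lay inside the D2 Ctrl range. The edgeR change of Hp1bp3 averaged over strains was -0.39 ± 0.11 and did not pass (adjusted p = 0.0907), though it passed without B6 KD 3 (edgeR adjusted p = 0.0310) or D2 KD 3 (edgeR adjusted p = 0.0283). The median library held 32.4 M expected counts, the smallest 18.2 M and the largest 39.4 M. Markers of neurons (12 genes) and of hippocampal principal cells (10 genes) were above 0 in all 12 libraries. The hippocampal sums ran from 28585 to 42090 in B6 and from 21786 to 28933 in D2. Between strains edgeR called 3 of the 10 lower in D2 and 0 higher (log2 -3.27 for Zbtb20, -1.82 for Prox1 and -0.43 for Spink8), with 4 estimates above 0. Of 8 oligodendrocyte markers 2 were called lower in D2, beside 21.3% of all genes called. The part of these levels in strain differences of the members was not tested. Summed choroid plexus markers (12 genes) spanned 2317 to 163046 normalized counts, with wide spread inside each of the 4 groups. Summed interferon response genes (12 genes) ran from 12618 to 39930 in B6 KD against 2093 to 2561 in B6 Ctrl, and from 3085 to 14896 in D2 KD against 2449 to 6398 in D2 Ctrl.

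Snurf and Snrpn lie on the minus strand, and their shared start is shown first because every later result on this pair depends on it. In GENCODE M21 (GRCm38) Snurf spans chr7:59995449-60005049 and Snrpn spans chr7:59982495-60140219. Snurf encodes the small SNRPN upstream reading frame protein and Snrpn encodes SmN, a neuronal core protein of the spliceosome. All 216 exon bases of Snurf (100%) lie inside exons of Snrpn. RefSeq windows from 250 bases before to 50 bases after a start (GRCm38.p6) were found for all 7 genes, and the Snurf window is identical to 1 of the 4 Snrpn windows. Further Snrpn windows lie upstream, and 1 of them is shown with the Ndn window for comparison. RefSeq and M21 do not place every start alike. The shared window lies wholly upstream of the M21 span of Snurf, and the Ndn window lies wholly inside the M21 span of Ndn. Each window is given 5′ to 3′ on the strand of its gene, and capitals mark the letters CGCATGCG, which read the same on both strands and were chosen after the windows had been read.

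Snurf and Snrpn shared start, chr7:60005150-60005449, minus strand: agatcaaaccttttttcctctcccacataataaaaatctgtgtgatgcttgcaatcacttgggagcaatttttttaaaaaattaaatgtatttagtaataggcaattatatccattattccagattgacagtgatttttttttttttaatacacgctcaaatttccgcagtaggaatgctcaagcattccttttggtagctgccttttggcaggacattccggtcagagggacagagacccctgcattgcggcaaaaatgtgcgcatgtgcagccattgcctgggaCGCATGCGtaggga
Snrpn upstream start, chr7:60140176-60140475, minus strand: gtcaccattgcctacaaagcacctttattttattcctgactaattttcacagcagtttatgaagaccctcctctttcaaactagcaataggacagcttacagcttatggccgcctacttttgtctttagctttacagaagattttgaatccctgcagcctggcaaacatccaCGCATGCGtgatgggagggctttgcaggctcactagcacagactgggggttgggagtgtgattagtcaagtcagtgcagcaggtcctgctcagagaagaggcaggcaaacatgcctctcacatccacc
Ndn start, chr7:62348027-62348326, plus strand: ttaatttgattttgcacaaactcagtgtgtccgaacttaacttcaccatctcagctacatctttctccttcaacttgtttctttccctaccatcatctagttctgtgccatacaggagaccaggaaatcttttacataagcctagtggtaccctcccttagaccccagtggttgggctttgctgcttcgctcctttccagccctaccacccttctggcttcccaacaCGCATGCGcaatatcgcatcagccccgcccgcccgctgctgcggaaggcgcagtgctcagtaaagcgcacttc

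Of 9 distinct windows of the 7 genes, 5 hold CGCATGCG, namely the shared Snurf and Snrpn start, the 3 upstream Snrpn starts and the Ndn start. Among all 32851 windows of the same length, 1.87% hold it. The letters were chosen from these windows, so 5 of 9 beside this share is a description and no test. The 3 upstream Snrpn windows share long stretches of sequence, so they are not separate occurrences. The letters are those at the core of the recognition sequence of the transcription factor NRF1, and a match is a description of sequence only. The windows of Magel2, Peg12, Mkrn3 and Ube3a do not hold these letters. Counts of the CG dinucleotide, the site of imprint methylation, were 7 in the shared start, 4, 3 and 2 in the upstream Snrpn windows, 10 in Magel2, 11 in Ndn, 12 in Peg12, 15 in Mkrn3 and 29 in Ube3a, against a median of 7 over all windows.

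Snurf was lower in B6 KD and higher in D2 KD. In B6 Ctrl its normalized counts were 625, 674 and 673, and in B6 KD they were 471, 500 and 500. In D2 Ctrl they were 935, 1042 and 1310, and in D2 KD they were 1856, 1623 and 2320. The KD libraries lay below all Ctrl libraries in B6 and above all Ctrl libraries in D2. The means were 657 ± 28.0 and 490.4 ± 16.5 in B6 and 1096 ± 193 and 1933 ± 355 in D2 (SD, n = 3 each), so KD stood at 74.6% of Ctrl in B6 and at 176% in D2. Groups separated in this way, lower in B6 KD and higher in D2 KD, in 30 of the 15853 genes tested (0.189%), and Snurf is 1 of them by the rule that chose it. The edgeR estimates were -0.40 ± 0.15 (SE, log2) in B6 and 0.82 ± 0.14 in D2. Without the library labelled D2 KD 3, which had the highest Snurf of all, the D2 estimate was 0.67.

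**Figure D1:**
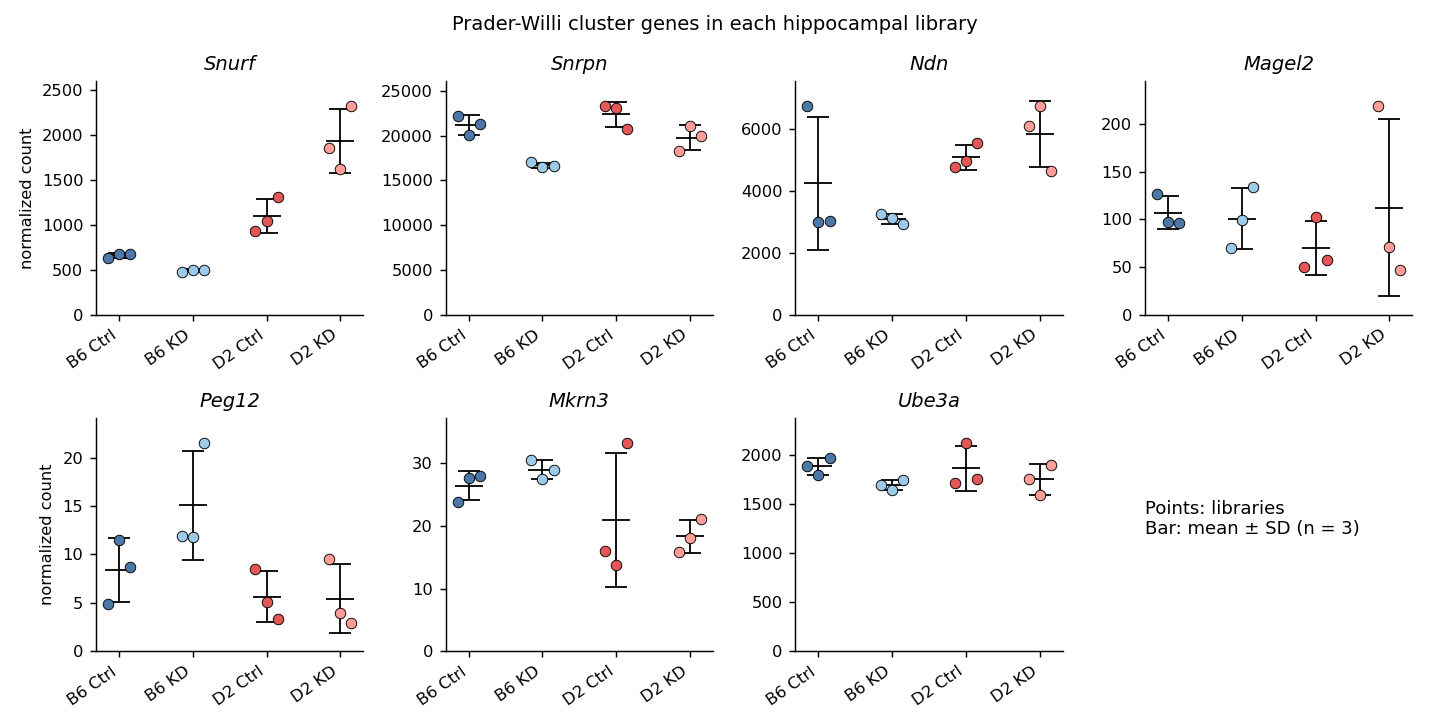
Normalized counts of the 7 cluster genes (vertical axes, each from 0) in the 4 groups (horizontal axes), with 1 point per library and bars for the mean ± SD of 3 libraries. Snurf in D2 KD ran from 1623 to 2320 and lay above all other libraries, while Ndn in B6 Ctrl held 1 library at 6737 far above the other 2.

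Snrpn did not follow Snurf in D2. Its normalized counts were 22250, 20076 and 21335 in B6 Ctrl and 17029, 16464 and 16579 in B6 KD. In D2 they were 23328, 23123 and 20787 in Ctrl and 18293, 21074 and 19970 in KD. In B6 every KD library had less Snrpn than every Ctrl library, while the D2 groups overlapped. Snrpn in KD stood at 78.7% of Ctrl in B6 and at 88.2% in D2. The log2 change was -0.32 ± 0.08 in B6 (edgeR adjusted p = 0.0556) and -0.18 ± 0.08 in D2 (edgeR adjusted p = 1), and averaged over strains it was -0.25 ± 0.06 (edgeR adjusted p = 0.0621). None of these passed the threshold of 0.05, and the difference between the strains did not pass it either, at 0.15 ± 0.11 (edgeR adjusted p = 0.951). With DESeq2 the B6 and averaged changes of Snrpn passed, with adjusted p of 0.000385 and 0.000175. The B6 change also passed in edgeR with RLE scaling (adjusted p = 0.0489), with the newer quasi-likelihood method (adjusted p = 0.0497) and without D2 Ctrl 3 (adjusted p = 0.0479). The averaged change passed without D2 Ctrl 3 (edgeR adjusted p = 0.0474) or D2 KD 3 (edgeR adjusted p = 0.0486). Averaged over strains, these 2 refits called 2.03% and 4.97% of all genes, against 0% with all libraries.

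Several marker sums also differed between the B6 groups. The 12 neuron markers summed to 353465 to 392625 normalized counts in B6 Ctrl and 293940 to 343971 in B6 KD, without overlap. The median log2 change of the list was -0.15, with 0 of 12 called by edgeR (2.64% of all genes) and 3 of 12 at an unadjusted p under 0.05 (20.6%). Of the 12 estimates 8 were below 0, and 4 were above it (Stmn2, Slc17a7, Gad2 and Map2). Much of the summed difference was Camk2a, with means of 125053 and 90151. The 9 microglia markers summed to 13299 to 15421 in B6 Ctrl and 18608 to 30590 in B6 KD, with all 9 estimates above 0 and 1 called. Of 9 astrocyte markers edgeR called Aqp4 higher (adjusted p = 0.0326), a call lost in 5 of 12 refits without a single library. All 12 interferon genes were called higher in B6 KD. Their part in the Snrpn difference was not tested.

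How reads were divided between Snurf and Snrpn bears on both genes. RSEM, which the authors used, splits a read that fits several genes into fractions, so a decimal in an expected count marks shared reads. Snurf and Snrpn had decimals in 12 of 12 libraries, as 6.07% of all genes did. Their sum was a whole number, within 0.001, in 12 of 12 libraries, and among all genes Snrpn was the 1 gene whose decimals completed those of Snurf everywhere. In the M21 transcripts, all 142 windows of 75 bases, the read length of the study, that fit in Snurf also occur in Snrpn (100%), whereas 7.64% of the windows of the transcript Snrpn-201 occur in Snurf. A 75-base read that lies inside Snurf therefore cannot, without its mate, be given to 1 of the genes by its sequence.

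The share of Snurf in the summed counts gives the division in each library. It was 2.73%, 3.25% and 3.06% in B6 Ctrl and 2.70%, 2.95% and 2.93% in B6 KD. In D2 it was 3.85%, 4.31% and 5.93% in Ctrl and 9.21%, 7.15% and 10.4% in KD. The B6 groups overlapped, with means of 3.01% ± 0.261 and 2.86% ± 0.140 (SD, n = 3 each), so both genes were lower by a like proportion in B6 KD. All D2 KD libraries lay above all D2 Ctrl libraries, with means of 8.92% ± 1.65 and 4.70% ± 1.09 (SD, n = 3 each). The share uses Snurf in the contrast it was chosen for, so its KD difference is not tested. The summed normalized counts of both genes in B6 averaged 21879 ± 1068 for Ctrl and 17182 ± 282 for KD, while D2 averaged 23509 ± 1223 for Ctrl and 21713 ± 1369 for KD (SD, n = 3 each). The mean of the sum was lower in KD in each strain. The sum holds Snurf, so its KD difference is not tested either.

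Between strains the share differed. It averaged 6.81% in D2 and 2.94% in B6, a difference of 3.88 percentage points (exact 2-sided permutation p = 0.005, strain exchanged within treatment, the smallest p that 400 assignments allow), and it was higher in 6 of 6 D2 libraries than in every B6 library. This contrast is not the one that chose Snurf, but it averages in the KD libraries that the choice used, and in Ctrl alone the means were 4.70% and 3.01%, a difference of 1.69 points (exact 2-sided permutation p = 0.1, the smallest that 3 against 3 libraries allow). Leaving out each library in turn gave differences of 3.50 to 4.32. Reads of each strain were aligned to a genome of that strain, so strain and reference cannot be told apart in this difference.

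The library numbers in the sample titles ran along with treatment. In B6 the KD libraries were numbers 2, 3 and 5 and the Ctrl libraries 9, 10 and 11, whereas in D2 the Ctrl libraries were 1, 4 and 6 and the KD libraries 7, 8 and 12. In each strain the group with the higher numbers had more Snurf in every library than the group with the lower numbers. Within a strain, treatment and library number cannot be told apart, and the labels do not say what the number stands for beyond naming the library. Snurf also ran along with choroid plexus markers inside groups. In each of the 4 groups the library with the lowest choroid sum had the lowest Snurf. In D2 Ctrl the sums were 6305, 126770 and 159578 and in D2 KD they were 155718, 2317 and 163046, in the order of the Snurf values given above, so Snurf and the sum had the same order in both D2 groups. The order was also the same in B6 Ctrl but not in B6 KD. With the choroid score as a covariate the edgeR estimates for Snurf were -0.51 in B6 and 0.83 in D2. What part choroid plexus content had in the Snurf levels was not tested otherwise.

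**Figure D2:**
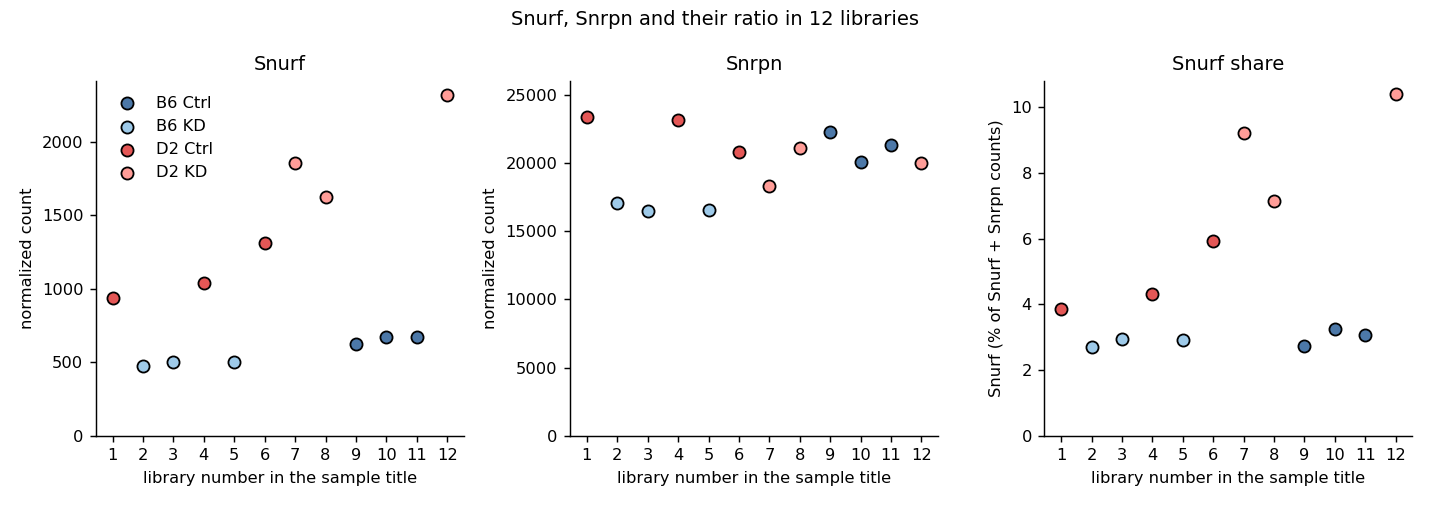
Normalized counts of Snurf and Snrpn and the Snurf share of their summed expected counts (%, vertical axes) against the library number in the sample title (horizontal axes), with 1 point per library colored by group. B6 shares stayed between 2.70% and 3.25% at low and high numbers, and D2 shares ran from 3.85% to 10.4%, with KD at 7, 8 and 12.

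Ndn encodes necdin, a MAGE family protein that restrains growth and supports survival of neurons. It lies at chr7:62346569-62350262 on the plus strand. Its B6 Ctrl libraries had 6737, 2983 and 3037 normalized counts and its B6 KD libraries 3255, 3110 and 2934. The D2 libraries had 4759, 4978 and 5539 for Ctrl and 6087, 6744 and 4657 for KD. All B6 libraries except B6 Ctrl 1 lay below every D2 library, and B6 Ctrl 1 lay near the top of the D2 range. The B6 change of -0.43 ± 0.27 (edgeR adjusted p = 0.398) rested on that library and was 0.03 without it. In D2 the change was 0.20 ± 0.27 (edgeR adjusted p = 1). Averaged over treatments, D2 exceeded B6 by 0.58 ± 0.19 log2 units (edgeR adjusted p = 0.0549), and without B6 Ctrl 1 by 0.84 ± 0.09 (edgeR adjusted p = 0.000127). It also passed without D2 KD 3, at 0.65 (edgeR adjusted p = 0.0453), and with all libraries in DESeq2 (adjusted p = 0.0145) and limma-voom (adjusted p = 0.0345).

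The library B6 Ctrl 1 also had a choroid plexus sum of 2643 normalized counts, near the lowest of all, and it was lowest in the thalamus and hypothalamus markers (12 genes, 2 of them at 0), with a sum of 2173 against 2537 to 4190 elsewhere. The part of these marker levels in its Ndn value was not tested.

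Magel2, which encodes a MAGE protein acting with the WASH complex in endosomal sorting, had far lower levels. It lies at chr7:62377010-62381640 on the plus strand. Its normalized counts were 127, 97.7 and 96.8 in B6 Ctrl and 69.5, 99.5 and 134 in B6 KD. In D2 they were 49.8, 103 and 57.7 in Ctrl and 219, 71.0 and 46.9 in KD. The groups overlapped in both strains, and the high value belonged to D2 KD 1 alone. The D2 change of 0.70 ± 0.52 (edgeR adjusted p = 1) turned to -0.24 without that library, and the B6 change was -0.06 ± 0.51 (edgeR adjusted p = 0.966). The strain difference was -0.25 ± 0.36 (edgeR adjusted p = 0.707).

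Mkrn3 encodes a makorin RING finger ubiquitin ligase that restrains the onset of puberty, and Peg12 encodes a protein of the FRAT family that binds GSK-3. Mkrn3 (chr7:62417593-62420139, minus strand) ranged from 13.7 to 33.3 normalized counts over the 12 libraries and Peg12 (chr7:62461871-62464510, minus strand) from 2.87 to 21.5, on expected counts of 8 to 39 and of 3 to 29. Peg12 was higher in every B6 KD library (11.9, 11.8 and 21.5) than in any B6 Ctrl library (4.92, 11.5 and 8.72), yet at these counts the change of 0.91 ± 0.50 did not pass (edgeR adjusted p = 0.338). For Mkrn3 the KD changes were 0.16 ± 0.32 in B6 and -0.21 ± 0.34 in D2 (edgeR adjusted p = 0.820 and 1). Both had lower averages in D2, by estimates of -0.49 ± 0.23 for Mkrn3 (edgeR adjusted p = 0.181) and -1.01 ± 0.39 for Peg12 (edgeR adjusted p = 0.0971). The first passed without D2 Ctrl 3, at -0.75 (edgeR adjusted p = 0.0167), and the second without D2 KD 1, at -1.31 (edgeR adjusted p = 0.0401).

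Ube3a encodes an E3 ubiquitin ligase and lies at chr7:59228750-59311536 on the plus strand. In B6 its normalized counts were 1894, 1798 and 1972 with the scrambled shRNA and 1700, 1640 and 1749 after KD. For D2 the Ctrl counts were 1711, 2126 and 1755 and the KD counts 1759, 1593 and 1904. The B6 KD libraries lay just below the B6 Ctrl libraries and the D2 groups overlapped. The changes were -0.13 ± 0.10 in B6 and -0.09 ± 0.10 in D2 (edgeR adjusted p = 0.471 and 1), and the strain difference was 0.00 ± 0.07 (edgeR adjusted p = 0.980). Its expected counts were whole in 6 of 6 B6 libraries and had decimals in 6 of 6 D2 libraries, as in 109 genes (0.490%). In M21, 8.74% of its exon bases overlap exons of the antisense transcript Snhg14, which has no row in the tables by that name. The strand setting of the counting is not given in the sources used here, so sense and antisense reads over these bases cannot be told apart.

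Per kilobase of merged exon in M21, the levels fell into a wide order. Group means of normalized count per kilobase were 7731 to 10381 for Snrpn, 839 to 1578 for Ndn, 82.2 to 91.5 for Ube3a, 15.1 to 24.3 for Magel2, 7.20 to 11.4 for Mkrn3 and 2.06 to 5.71 for Peg12, and the ranges of these 6 genes did not overlap. Snurf stood at 2270 to 8948, but its level depends on the division of shared reads. The Ensembl identifier that the table gives for Snrpn belongs in M21 to Gm38393, a locus that holds both genes, and its identifier for Snurf has no match in M21. Positions, exon overlaps, shared windows and lengths of this pair therefore come from M21 records found by symbol, so the lengths used for this pair are approximate. The length used for Ndn is that of its M21 record, which begins before its RefSeq start, so its level per kilobase is approximate too.

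**Figure D3:**
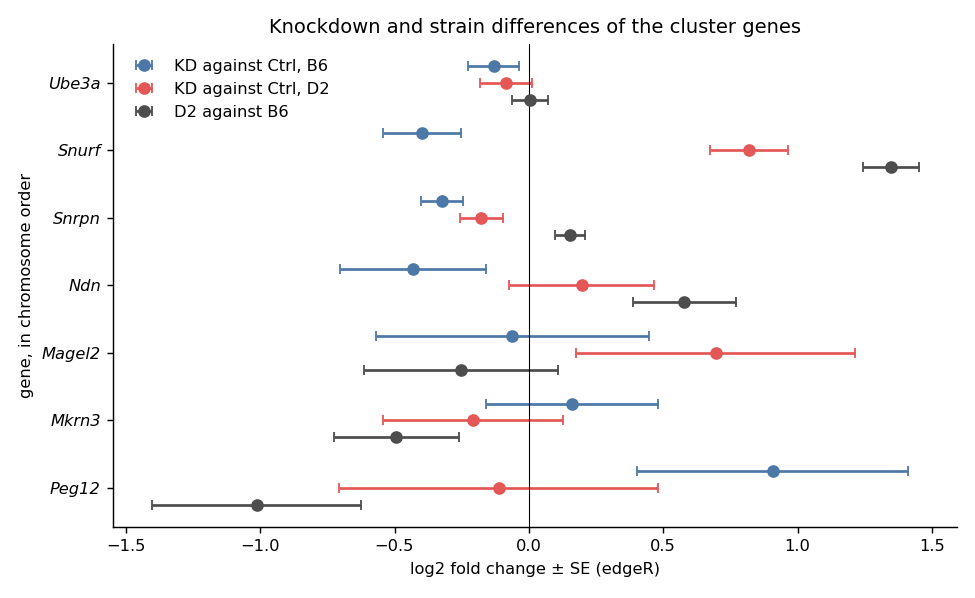
Estimated log2 fold change ± SE from edgeR (horizontal axis) for the 7 genes in chromosome order (vertical axis), for KD against Ctrl in B6 and in D2 and for D2 against B6 averaged over treatments. Snurf is the gene with -0.40 in B6 and 0.82 in D2, and its strain difference of 1.35 is the largest of the 7.

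Across the 7 genes, edgeR called 0 for KD in B6, where 2.64% of all tested genes (418) were called (1.76% higher and 0.877% lower), with 2 members at an unadjusted p under 0.05 (20.6% of all genes). The 418 calls became 0 with the total count or the choroid score as a covariate and without B6 Ctrl 1, B6 Ctrl 3, B6 KD 1, B6 KD 2 or D2 Ctrl 1, 45 without D2 Ctrl 2, 124 without D2 KD 1, 237 without B6 Ctrl 2, 673 without D2 KD 3 and 790 without B6 KD 3. It called 0 for KD in D2, for KD averaged over strains and for the interaction, where 0% of all genes were called, with 2, 1 and 1 members at an unadjusted p under 0.05 (2.85%, 19.2% and 5.91% of all genes). DESeq2 called 1 member in each of these 4 comparisons. These were Snrpn in B6 and averaged over strains, where DESeq2 called 10.6% and 7.83% of all genes, and Snurf in D2 and in the interaction, where it called 0.00631% and 0.0694%. The tool limma-voom called 0 members in all 4, and 2.32% of all genes in B6 and 0% in the other 3. Snurf was chosen for its KD differences, so its calls, unadjusted p-values and separated libraries in these comparisons are no evidence. Counts of members at an unadjusted p under 0.05 in B6, in D2 and in the interaction include Snurf, which shares reads with Snrpn. Libraries did not overlap, with KD lower, in B6 for Snurf, Snrpn and Ube3a (3 of 7, against 16.2% of all genes), and with KD higher in B6 for Peg12 (1 of 7, against 12.6%). In D2 the groups separated upward for Snurf (1 of 7, against 2.99%) and downward for 0 of 7 (against 3.05%). No member was lower in KD in both strains without overlap (1.39% of all genes), higher in both (0.555%) or higher in B6 and lower in D2 (0.0505%). Median log2 changes of the members were -0.13 in B6 and -0.09 in D2, beside 0.00 and 0.00 over all genes.

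D2 against B6 was the comparison in which a member was called. Snurf averaged 1514 normalized counts in D2 (lowest 935, median 1467, highest 2320) and 574 in B6 (lowest 471, median 562, highest 674), and the strains did not overlap. The log2 difference was 1.35 ± 0.10 (edgeR adjusted p = 2.46e-06). This average includes the KD libraries that chose Snurf, and it was made up of unequal parts, 0.74 ± 0.15 in Ctrl (edgeR adjusted p = 0.00495, where 14% of all genes were called) and 1.96 ± 0.15 in KD. The comparison in Ctrl was added after the data were seen. The Snurf level also depends on the division of reads shared with Snrpn. Reads of each strain were aligned to a genome of that strain. In every strain difference given here, for any gene, strain and reference therefore cannot be told apart. Of all tested genes, 21.3% were called between strains by edgeR (8.64% higher and 12.7% lower in D2), 24.6% by DESeq2 and 21.1% by limma-voom. Of the members, 4 of 7 had an unadjusted p under 0.05, against 30.3% of all genes. Of all tested genes, 5.65% were higher in every D2 library than in every B6 library. The reverse held for 8.75% of all genes and for 0 of the 7 members. Snrpn overlapped between strains, at 16464 to 22250 in B6 and 18293 to 23328 in D2, with a difference of 0.15 ± 0.06 (edgeR adjusted p = 0.0842), which passed without D2 KD 1, at 0.19 (edgeR adjusted p = 0.0486), and in DESeq2 (adjusted p = 0.0140). Of the 7 strain estimates, 4 were above 0 and 3 below.

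Around the cluster, 32 of 47 genes listed within 5 Mb of the Snurf start were tested, 25 of them not members. For KD in B6, KD in D2, KD averaged over strains and the interaction, edgeR called 0 of the 25, against 2.64%, 0%, 0% and 0% of all genes. At an unadjusted p under 0.05 there were 1, 0, 1 and 1, against 20.6%, 2.85%, 19.2% and 5.91% of all genes. Between strains it called 9 of 25, against 21.3% of all genes, with 4 higher and 5 lower in D2 (against 8.64% and 12.7%). Gm7367, 0.15 Mb from the Snurf start, had the largest log2 difference, 6.72 ± 0.53 (edgeR adjusted p = 3.27e-06). Gm9962 was also higher in D2, by 4.59 ± 0.52 (edgeR adjusted p = 5.53e-05). Gabrg3, a GABA-A receptor subunit gene, stood at 574 to 796 normalized counts in B6 Ctrl and 18.9 to 28.2 in D2 Ctrl. Its log2 difference over both treatments was -4.61 ± 0.17 (edgeR adjusted p = 6.66e-09).

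**Figure D4:**
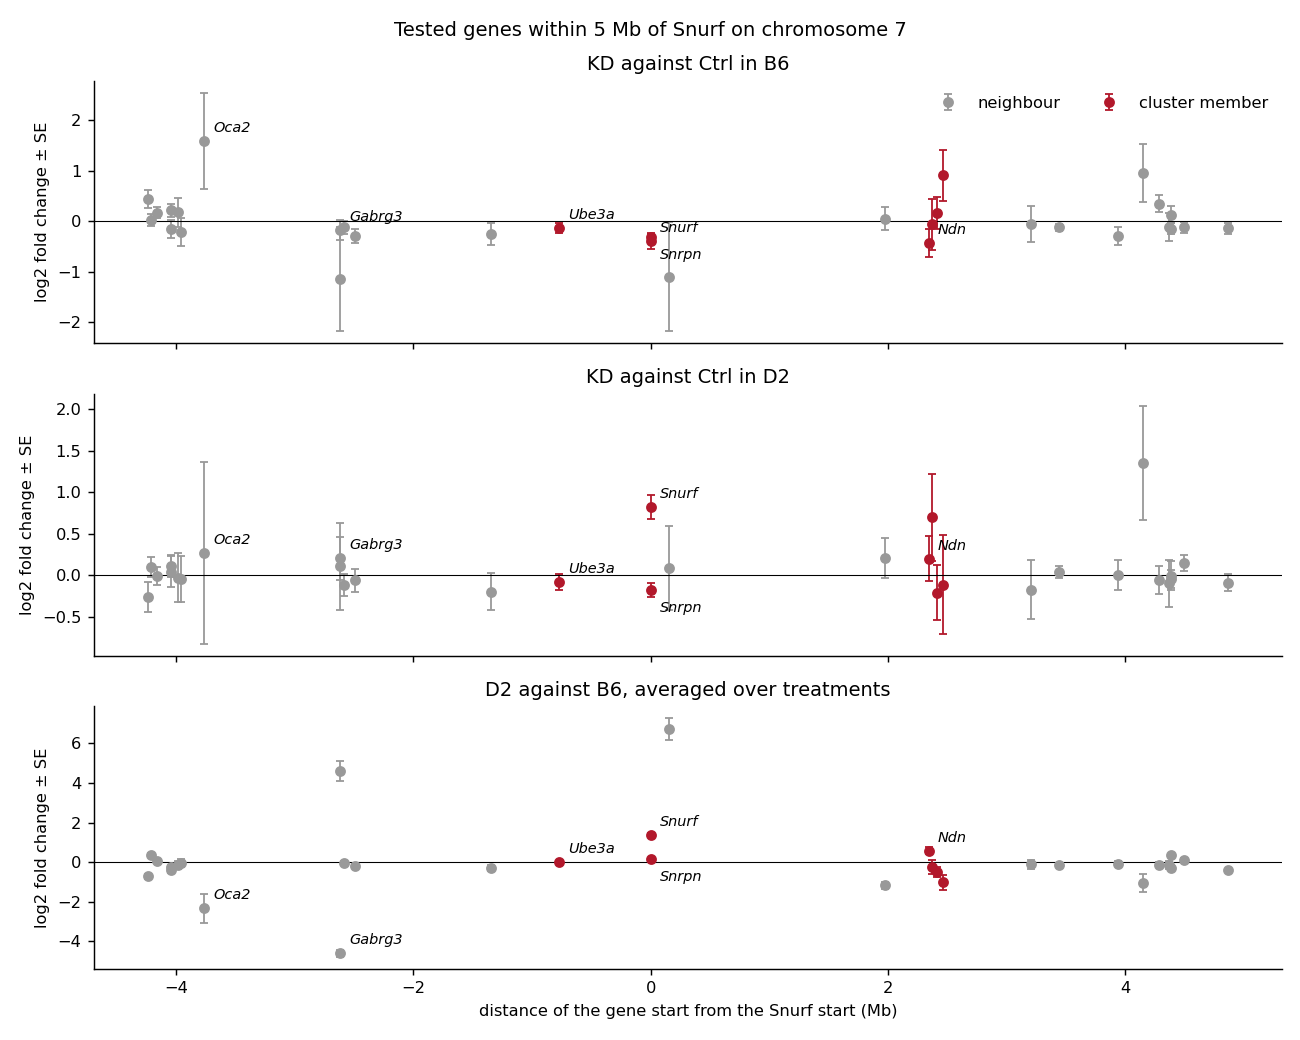
Estimated log2 fold change ± SE from edgeR (vertical axes, scaled per panel) of the 32 tested genes within 5 Mb of Snurf, against the distance of each gene start from the Snurf start (Mb), for KD in B6, KD in D2 and D2 against B6. Snrpn is placed by the M21 record of its identifier (Gm38393), which starts together with Snurf. In D2 Snurf was at 0.82 and Snrpn at -0.18, while the nearest other member, Ube3a, was at -0.09.

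In a wider list of 22 genes flanking the cluster, 21 were tested. Fam189a1 was called lower in B6 KD, at 2461 to 2882 normalized counts against 3292 to 3971 in Ctrl (log2 -0.38 ± 0.08, edgeR adjusted p = 0.0447). It was the 1 flanking gene of 21 called there, where 2.64% of all genes were called. When libraries were left out singly, 7 of 12 refits lost the call (edgeR adjusted p up to 0.188), and it was also lost with the total count or the choroid score as a covariate (edgeR adjusted p = 0.0712 and 0.0825). No flanking gene was called in D2, averaged over strains or in the interaction by edgeR, where 0% of all genes were called. At an unadjusted p under 0.05 there were 0, 1 and 1, against 2.85%, 19.2% and 5.91% of all genes. The largest D2 estimates were 0.26 ± 1.09 for Oca2 and -0.22 ± 0.26 for Tjp1. The largest interaction estimates were -1.32 ± 1.45 for Oca2 and 0.47 ± 0.12 for Fam189a1. Between strains 2 were called higher and 3 lower in D2 (against 8.64% and 12.7% of all genes), namely Tubgcp5 (0.37), Mphosph10 (0.35), Tarsl2 (-0.21), Gabrg3 and Oca2 (-2.32). Of a list of 13 names of noncoding RNAs of the cluster, 2 matched the table, Snord64 and A330076H08Rik, and the table also holds Snord116l1 and Snord116l2 under names outside the list. The snoRNA rows, at or near 0, were not tested. The tested RNA was A330076H08Rik, at 63.1 to 86.4 normalized counts over B6 and 26.3 to 41.8 over D2, with a strain difference of -1.16 ± 0.17 (edgeR adjusted p = 0.000355), and with KD changes of 0.05 ± 0.23 in B6 and 0.21 ± 0.24 in D2 that did not pass (edgeR adjusted p = 0.985 and 1).

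Genes of the proteins that work with the members were read next. SmN takes the place of SmB in spliceosomal particles. Of 12 genes of Sm and other core particle proteins, edgeR called none for KD in either strain, averaged or in the interaction. The shares of all genes called were 2.64%, 0%, 0% and 0%. At an unadjusted p under 0.05 there were 0 in B6, 1 in D2, 1 averaged and 0 in the interaction. Of all genes, 20.6%, 2.85%, 19.2% and 5.91% were under it. The largest estimates were 0.19 ± 0.11 for Snrpe and -0.13 ± 0.08 for Snrnp70 in B6, and -0.19 ± 0.08 for Snrnp70 and 0.14 ± 0.10 for Snrpc in D2. In the interaction they were -0.17 ± 0.27 for Snrpa1 and 0.08 ± 0.15 for Snrpb. Between strains, where 21.3% of all genes were called, Snrpg was called higher in D2 (1.30) and Snrpc (-0.59), Snrpa1 (-0.57) and Snrpd1 (-0.27) lower. Small Sm protein genes have processed copies that could share reads, so these levels are uncertain.

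Of 15 tested genes for partners of MAGEL2 and necdin, 0 were called for KD or the interaction by edgeR. For KD in B6 it called 2.64% of all genes, and 0% in D2, averaged and in the interaction. At an unadjusted p under 0.05 there were 1 in B6, 0 in D2, 1 averaged and 0 in the interaction. Of all genes, 20.6%, 2.85%, 19.2% and 5.91% were under it. The largest estimates were -0.28 ± 0.10 for Vps26b and 0.21 ± 0.15 for Nucb2 in B6, 0.43 ± 0.37 for Ngfr and 0.22 ± 0.16 for Nucb2 in D2, and 0.29 ± 0.53 for Ngfr and 0.24 ± 0.34 for E2f1 in the interaction. Between strains Fam21 (0.33) and A230046K03Rik (0.58), older names of WASH complex genes, were called higher in D2, and Ndnl2 (-0.40), a MAGE gene, lower. Of all genes, 21.3% were called between strains.

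Of 14 genes for partners and substrates of UBE3A, 0 were called for KD or the interaction by edgeR, beside 2.64% of all genes in B6 and 0% otherwise. At an unadjusted p under 0.05 there were 3 in B6, 0 in D2, 1 averaged and 2 in the interaction. Of all genes, 20.6%, 2.85%, 19.2% and 5.91% were under it. Arc, a synaptic immediate early gene, stood at 4335 to 5679 normalized counts in B6 Ctrl and 1708 to 2411 in B6 KD (log2 -1.21 ± 0.30, edgeR adjusted p = 0.0556), and Arhgef15 had 0.58 ± 0.24 (edgeR adjusted p = 0.207). In D2 the estimates were 0.35 ± 0.24 for Arhgef15 and 0.30 ± 0.30 for Arc, and in the interaction 1.51 ± 0.42 for Arc and 0.34 ± 0.14 for Ring1 (edgeR adjusted p = 0.821 each). Between strains, with 21.3% of all genes called, Arhgef15 was called higher in D2 (1.04) and Ring1 lower (-0.41).

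Imprint maintenance was read through 20 tested genes of DNA methylation and its readers. Uhrf1, which recruits the maintenance methyltransferase to DNA, was called higher in B6 KD, at 78.5 to 88.4 normalized counts against 32.3 to 43.7 in Ctrl (log2 1.16 ± 0.27, edgeR adjusted p = 0.0488). It lost the call in 10 of 12 refits without a single library (edgeR adjusted p up to 0.192), without the filter on low counts (edgeR adjusted p = 0.0550) and with the total count or the choroid score as a covariate (edgeR adjusted p = 0.0748 and 0.0831). It was the 1 gene of 20 called there, against 2.64% of all genes. In D2 it had 0.34 ± 0.27 and Dnmt3b 0.32 ± 0.24, with 0 called (0% of all genes) and 1 at an unadjusted p under 0.05 (2.85%). Averaged over strains and in the interaction edgeR called 0 (0% of all genes), with 4 and 0 at an unadjusted p under 0.05 (19.2% and 5.91%). The largest interaction estimates were -0.82 ± 0.38 for Uhrf1 and -0.52 ± 0.26 for Rb1. Zfp445, a zinc finger gene that guards imprints, was called higher in D2 (2.34 ± 0.33, edgeR adjusted p = 0.000342), with 4844 to 6742 normalized counts in D2 KD against 456 to 1578 in B6 KD. Rb1 (0.48) was also called higher in D2 and Hdac1 (-0.31) lower, beside 21.3% of all genes called between strains.

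The genes whose levels ran most like those of Snurf were described by Pearson r over 12 libraries after the mean of each strain was removed, among 14180 genes, so each shares the library and its depth. For Snurf these were Farp2 (0.86), 1700110I01Rik (0.86), Zfp300 (0.84), Btbd19 (0.80) and Gm3604 (0.79). The D2 levels of 1700110I01Rik were near 0, at 0 to 1.88 normalized counts in Ctrl and 8.68 to 10.5 in KD, against 90.6 to 117 in B6. Farp2 in B6 had 303, 313 and 309 normalized counts for Ctrl and 287, 279 and 303 for KD. In D2 it had 202, 226 and 227 for Ctrl and 312, 245 and 286 for KD, so its group means took the order of the Snurf means within each strain. Farp2 was picked for its likeness to Snurf in these same libraries, so this order is a description and no evidence. For Snrpn the genes were B230217C12Rik (0.96), Brms1l (0.95), Scfd2 (0.93), Evi5l (0.93) and Lypd6 (0.93), and for Ndn they were Tmem132e (0.92), Tbcb (0.87), Adra2a (0.87), Ly6h (0.85) and Hpcal4 (0.83). Among the B6 libraries, each gene listed for Ndn was highest in B6 Ctrl 1, the library with the outlying Ndn count. Tmem132e had 596 normalized counts there, against 280 to 338 in the other B6 libraries. The r for Ndn therefore lean on that library, and r without it was not computed. None of the 3 lists held another member. Between Snurf and Snrpn the r was -0.16, at rank 10657 of 14180.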

How the data were processed

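Per the labels, reads were aligned with Bowtie2 2.2.0 and counted with RSEM 1.2.12. The builds named are GRCm38 and mm10, and the annotation release and the D2 build are not given in the sources used here. For 10 of 12 samples reads of a second run were joined. The authors deposited expected counts per gene, estimates that need not be whole, and a signal, their DESeq2 normalized count, which equalled the truncated expected count divided by 1 factor per library (0.584 to 1.35). Multiplying back gave whole reads for 100% of 266784 values (within 0.001), and the quasi-likelihood test on these reads called 425 genes for KD in B6 and 3369 between strains, against 418 and 3379.

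Expected counts were rounded, filtered with filterByExpr, scaled by TMM and fitted with edgeR 4.0.16 (older quasi-likelihood method, robust). Each gene had 1 mean per group and a dispersion of its own, shared by all libraries. Benjamini-Hochberg adjusted p-values over 15853 genes under 0.05 were called. Each SE is the absolute log2 estimate over the square root of F. Alternatives were DESeq2 1.42.0, limma-voom 3.58.1, other scaling, filtering, covariates and leaving out libraries. In simulated counts for KD in D2 (15737 genes) edgeR recovered 67% of 200 genes changed 2-fold with 4 false calls, and DESeq2 recovered 80% with 42 false calls. Members and lists were chosen with earlier results of these data known. Named genes were the members, Hp1bp3, up to 4 called genes per list and comparison (otherwise the 2 largest estimates), and the 5 genes most like Snurf, Snrpn and Ndn. Separate mice are named in the titles, so p-values measure the spread between these mice. Replicate pairs differed beyond sampling noise (chi-square per degree of freedom 22.4 to 106). Intervals of depth cover counting error only. Choroid, neuron, hippocampal, thalamus and hypothalamus, astrocyte, oligodendrocyte, microglia and interferon marker lists were summed per library. Astrocyte and oligodendrocyte sums ran from 167140 to 263383 and from 82446 to 179204. Small RNA libraries were not analysed here.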

Additional observations from a re-analysis of the deposited data

Results flagged for a closer look

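Snurf moved opposite ways in the strains: every B6 KD library lay below every B6 Ctrl library, and every D2 KD library lay above every D2 Ctrl library. The edgeR interaction estimate was 1.22 ± 0.21 on the log2 scale. Snurf was chosen for this pattern, so the difference was not tested. Leaving out each library in turn gave 1.07 to 1.37, the lowest without the library labelled D2 KD 3.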

How the results depend on the processing

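Over the alternatives that kept all libraries, 242 tested estimates of members kept their direction and side of the threshold, 9 passed it newly and 3 changed sign. The estimates of Snurf in the contrasts that chose it are outside these counts, and 2 of them, in D2 and in the interaction, had an adjusted p under the threshold in DESeq2. The sign changes were those of the Ube3a strain difference, at -0.0028 with limma-voom, -0.0146 with the total count and -0.0147 with the choroid score as a covariate. For KD in B6, 1 member was called with RLE scaling, DESeq2 and the newer quasi-likelihood method (Snrpn), against 0. These settings called 2.97%, 10.6% and 3.86% of all genes, against 2.64%. With Snurf and Snrpn summed 1 was called as well, but the sum holds Snurf, which was chosen for this contrast. DESeq2 called 1 member for KD in D2, 1 averaged over strains and 1 for the interaction, against 0, and 3 between strains, against 1, with 0.00631%, 7.83%, 0.0694% and 24.6% of all genes called. Between strains limma-voom called 2 and the choroid score covariate 3, with 21.1% and 20.8% of all genes called. Hp1bp3 averaged over strains passed with DESeq2 at -0.41 (adjusted p = 0.00961), against -0.39 (adjusted p = 0.0907) in edgeR. The Snurf share kept its direction as a log2 ratio, at 1.18 (exact permutation p = 0.005). In Ctrl alone, added after the data were seen, it was 1.69 points (exact permutation p = 0.1, the smallest possible).

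Leaving out each library in turn gave 0 to 1 members called for KD in B6, 0 to 1 averaged over strains and 1 to 3 between strains, and -0.51 to -0.35 for Hp1bp3. The call of Snrpn in B6 came without D2 Ctrl 3 (edgeR adjusted p = 0.0479), where 3.69% of all genes were called, against 2.64% with all libraries. The averaged call came without D2 Ctrl 3 or D2 KD 3, where 2.03% and 4.97% of all genes were called, against 0%. Calls between strains were gained by Ndn without B6 Ctrl 1 or D2 KD 3, by Snrpn and Peg12 without D2 KD 1, and by Mkrn3 without D2 Ctrl 3. In these refits 18.8% to 20.3% of all genes were called between strains, against 21.3% with all libraries. Estimates that changed sign in this way were those for Ndn in B6 (-0.657 to 0.0317), Magel2 in B6 (-0.36 to 0.12), in D2 (-0.24 to 1.06) and in the interaction (-0.15 to 1.13), Peg12 in D2 (-0.74 to 0.35), Mkrn3 in D2 (-0.42 to 0.30) and in the interaction (-0.57 to 0.14), and Ube3a in D2 (-0.156 to 0.0157), in the interaction (-0.0154 to 0.148) and between strains (-0.0457 to 0.0454). The cause was not tested. No paired analysis was possible because the mice carry separate numbers and the labels tie no KD mouse to a Ctrl mouse. Peg12 and Mkrn3 were limited by depth, with at most 29 and 39 expected counts.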
